A study of Homo sapiens with 16 samples.

Results

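The partial knockdown of *EVI1* with the short hairpin RNA (shRNA) shEVI1-2531 was described from 4 RNA-Seq libraries of MUTZ-3 cells, out of 16 libraries in the series. They were chosen by their labels: 2 libraries carry shEVI1-2531, at day 3 and day 6, and 2 carry a non-targeting control shRNA (NTC) at the same days. MUTZ-3 is an established human acute myeloid leukemia (AML) line with inv(3), the inversion that places an enhancer of *GATA2* next to *MECOM*, the gene that encodes EVI1. All 4 libraries came from cells that received a pLKO.1 lentivirus and were selected with puromycin, in medium with serum, GM-CSF and conditioned medium of the 5637 cell line, so the controls carry a vector and a hairpin too. A further 2 libraries, with the second shRNA shEVI1-2532 at the same days, were used only where stated. Each shRNA and day was sequenced once, and the labels do not say whether the day 3 and day 6 libraries came from the same transduced culture. The 2 days therefore stand in for replicates, and p-values cover these libraries only, with a spread estimated over all genes.

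EVI1 is a zinc finger transcription factor of blood stem cells. In healthy blood it is switched off as progenitors mature, and in AML with inv(3) its forced expression keeps blasts in an immature, CD34-positive state and holds back maturation to monocytes and granulocytes. MUTZ-3 cells still hold a CD34-positive fraction that gives rise to CD14-positive monocyte-type cells. In such bulk RNA, fewer cells of a type and less RNA per cell cannot be told apart.

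The 4 libraries held 95523038 to 120716213 counts over genes, and 3 counts, taken as the lower limit of detection, came to 0.0249 to 0.0314 CPM (counts scaled to a common library total). The 100 most counted genes held 36.1% and 37.2% of the counts in NTC and shEVI1-2531 at day 3, and 29.4% and 30% at day 6. Genes of the mitochondrial genome took 2.49% and 3.40% of NTC counts and 3.05% and 2.97% of shEVI1-2531 counts. Levels are given below as CPM scaled by TMM factors, which correct for differences in RNA composition. Intervals and this limit cover counting error only.

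The first question was how much *MECOM* was left. *MECOM* (ENSG00000085276, minus strand of chromosome 3, 169083499 to 169663775, GRCh38) had 5123 counts in NTC at day 3 and 4825 at day 6, against 1171 and 2114 with shEVI1-2531. At day 3 the shEVI1-2531 level was 32.5% of NTC, a log2 ratio of -1.62 (95% counting interval -1.71 to -1.53), and at day 6 it was 47.1% of NTC, a log2 ratio of -1.08 (-1.16 to -1.01). Both shEVI1-2531 libraries lay below both NTC libraries, and the fitted change was -1.35 on the log2 scale (SE 0.21, adjusted p = 3.0e-09). With shEVI1-2532, in the fit of all 6 knockdown libraries, the change was -3.04, and the difference between the hairpins was 1.70 (SE 0.20, adjusted p = 1.4e-04). Within *MECOM* lies the processed pseudogene *RPL22P1*, on the same strand and with 11.9% as many counts, so reads from it cannot be fully told apart.

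**Figure D1:**
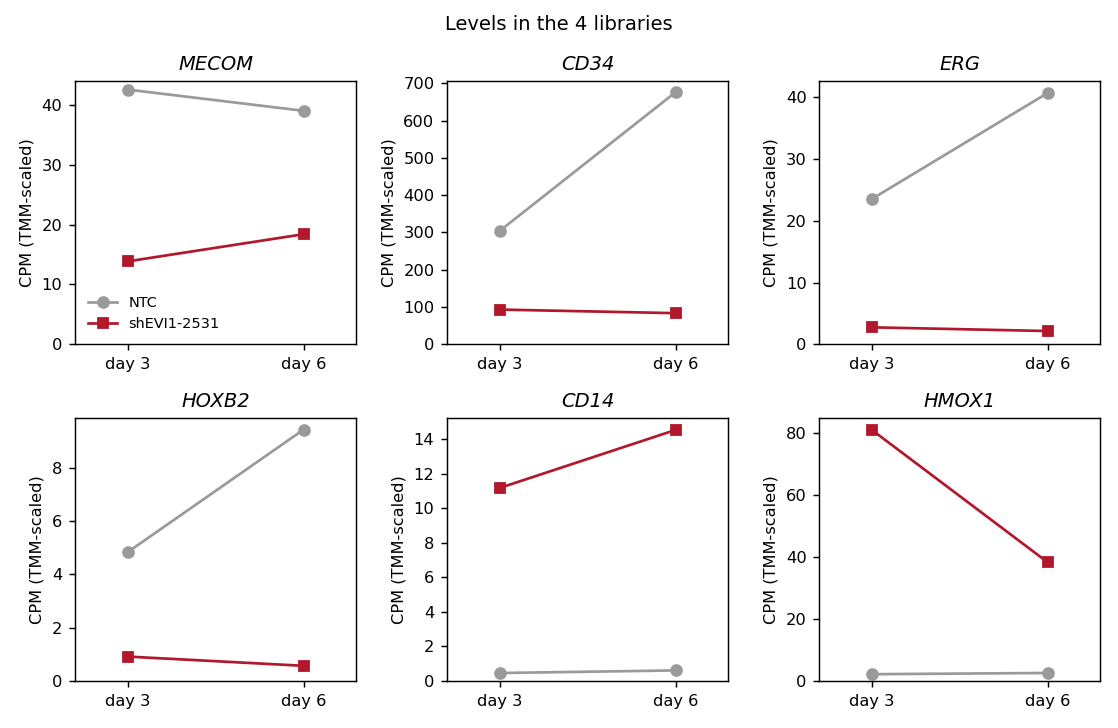
TMM-scaled CPM of *MECOM*, *CD34*, *ERG*, *HOXB2*, *CD14* and *HMOX1* (y axes, each with its own scale from 0) at day 3 and day 6 in NTC (gray circles) and shEVI1-2531 (red squares), with 1 library per point. The lines of NTC and shEVI1-2531 do not cross in any panel, and the NTC level of *CD34* is 304 CPM at day 3 and 676 at day 6.

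Next, the transcriptome at partial loss of *MECOM* was compared with NTC, with the day as a block. Of 18091 genes with at least 10 counts in 2 or more libraries, 982 were lower (5.43%) and 745 were higher (4.12%) by the call rule, an adjusted p below 0.05 with a log2 fold change past 1 in either direction. The median log2 fold change was -1.62 among the genes called lower and 1.5 among those called higher, and 646 and 548 of them differed by less than 4-fold. Only 46 lower and 19 higher genes were past 16-fold. Many called genes were faintly expressed, since 175 lower and 241 higher ones had a mean log2 CPM above 3. The residual degree of freedom was 1, and the spread was taken from a trend over all genes. A gene's own disagreement between the days therefore did not enter its error. By the same quasi-likelihood test, the adjusted p of *CD34* was 1.8e-59 with these 4 libraries and 1.4e-04 in the fit of 6 libraries. Without the block, 481 genes were lower and 419 higher. Scaled to library totals alone, where the median gene sat at -0.16 on the log2 scale in place of 0.01, the split was 1391 lower and 548 higher, so that 28.3% of the calls were higher in place of 43.1%.

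Most called genes had the same direction at both days, which follows largely from calls made on these same ratios. The ratio lay below 0 at both days for 911 of the 920 lower genes with a ratio at each day, and above 0 at both days for 730 of 735 higher genes. The ratio was further from 0 at day 6 for 452 of these 920 lower and 420 of these 735 higher genes. The share over all genes was not counted. The *MECOM* ratio was nearer to 0 at day 6. Whether a gene's response differed between the days could not be tested, as each day has 1 library per group. Among gene biotypes, 10.2% of 894 long intergenic non-coding RNAs were lower and 3.24% higher, against 4.96% and 4.61% of 12980 protein-coding genes. Antisense genes leaned the same way (7.47% of 1164 lower, 2.23% higher), and processed pseudogenes the other way (1.35% of 1560 lower, 2.12% higher). No expression limit was set for these shares. Genes with any count numbered 26468 and 26348 in NTC at day 3 and day 6, and 24176 and 25732 with shEVI1-2531.

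The day 3 ratios followed transcript length. Among 8579 protein-coding genes with a mean log2 CPM above 3, ranked by the length of their merged GENCODE 29 exons, the median log2 ratio at day 3 was 0.22 in the fifth with the shortest transcripts (207 to 2143 bases) and -0.18 in the fifth with the longest (6266 to 35303 bases). At day 6 these medians were 0.10 and 0.09. In the fitted comparison, 0.816% of the shortest and 4.08% of the longest were called lower, and 3.50% and 1.92% higher. The merged exons of the gene lists had medians from 1208 bases (primary granule genes) to 5336 bases (fatty acid synthesis genes). Without the shEVI1-2531 library of day 3, 573 genes were lower and 679 higher in the fit of 6 libraries, against 797 and 686 with all 6, and the part of transcript length in single genes was not tested.

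**Figure D2:**
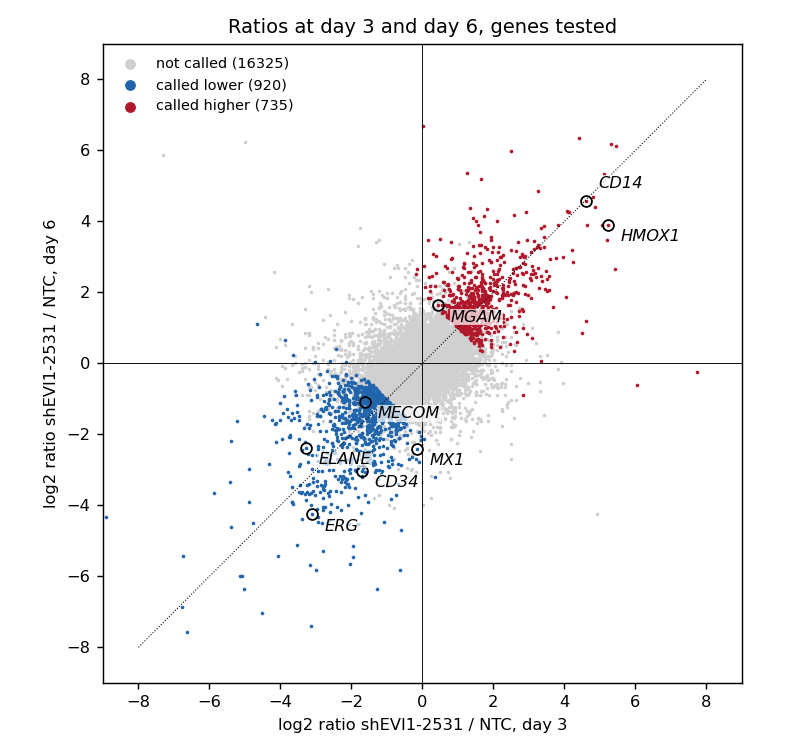
Log2 ratio of shEVI1-2531 to NTC at day 3 (x axis) and day 6 (y axis) for the genes tested that have a ratio at both days, each point 1 gene, with the 920 genes called lower in blue, the 735 called higher in red and the others in gray. Called genes lie mostly in the lower left and upper right, with *MX1* (-0.15 and -2.41) and *MGAM* (0.44 and 1.64) off the dotted line of equal ratios.

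The genes lost included regulators and surface proteins of stem and progenitor cells. *CD34*, the surface sialomucin that defines hematopoietic progenitors, had 36561 and 83487 counts in NTC at day 3 and day 6 and 7841 and 9556 with shEVI1-2531. It fell by 2.37 on the log2 scale (SE 0.14, adjusted p = 1.8e-59), and 30.5% and 12.3% of the NTC level were left at the 2 days. *ERG*, an ETS transcription factor that maintains stem cells, had 2830 and 5029 counts in NTC and 231 and 245 with shEVI1-2531, a change of -3.68 (SE 0.23, adjusted p = 7.9e-52). *HOXB2*, a homeobox factor, had 581 and 1164 against 77 and 65 counts, a change of -3.23 (SE 0.31, adjusted p = 7.8e-23). For all 3 genes the NTC level was higher at day 6 than at day 3 while the shEVI1-2531 level was not, and the groups did not overlap. The study named these genes from the same RNA-Seq, and the share of all genes without overlap was not counted.

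Among the 12 largest losses with a mean log2 CPM above 3, *EPX*, the peroxidase of eosinophil granules, had 2934 and 11633 counts in NTC and 342 and 508 with shEVI1-2531 (log2 fold change -3.51, SE 0.23). *SCD*, the desaturase that makes oleic acid, had 14616 and 28396 against 1396 and 2141 counts (-3.25, SE 0.17). *FAM30A*, a long non-coding RNA of stem cell-like AML, had 27915 and 54495 against 2955 and 4791 counts (-3.07, SE 0.15). In each of these genes both shEVI1-2531 libraries lay below both NTC libraries, which goes with their choice by the size of the change. *MYCN*, a MYC family factor, *SVOPL*, a putative transporter, and *RNF220*, a ubiquitin ligase, fell by 2.77, 2.82 and 2.77. *EVPL*, which encodes envoplakin, fell by 2.73, *ADGRG1*, the adhesion receptor GPR56, by 2.71, and *OAS2*, an interferon-induced oligoadenylate synthetase, by 2.65. *FADS1*, a fatty acid desaturase, fell by 2.50 and the S6 kinase gene *RPS6KA2* by 2.45. *FADS1* lies over *FADS2* on the other strand, which had 555% as many counts, and *RNF220* over *TMEM53* with 14.7%, and the strand setting of the counting is not stated.

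The genes gained included *HMOX1*, which encodes the heme-degrading heme oxygenase 1. It had 260 and 316 counts in NTC and 6834 and 4389 with shEVI1-2531, a rise of 4.56 (SE 0.24, adjusted p = 1.5e-77), with log2 ratios of 5.23 at day 3 and 3.90 at day 6. *ID3*, an inhibitor of basic helix-loop-helix factors, had 194 and 315 against 3394 and 4408 counts (4.27, SE 0.24), and *SESN3*, a stress-responsive sestrin, 277 and 284 against 3401 and 5049 (4.19, SE 0.24). These 3 genes were more than 10 times higher in each shEVI1-2531 library than in either NTC library by scaled CPM. *CD14*, the lipopolysaccharide co-receptor of monocytes, had 55 and 75 counts in NTC and 944 and 1669 with shEVI1-2531 (4.59, SE 0.29, adjusted p = 3.7e-52), with ratios of 4.61 and 4.58 at the 2 days. *LYZ*, the lysozyme of monocytes and granules, had 24899 and 19994 against 101689 and 117510 counts (2.60, SE 0.13, adjusted p = 1.7e-83). *THBS1*, which encodes thrombospondin 1, rose by 3.06, the semaphorin *SEMA6B* by 2.97, the gelatinase *MMP9* by 2.96, the fibrinogen-like *FGL2* by 2.57, *SIGLEC12* by 2.43 and *PARM1* by 2.41. *NCF1B* and *NCF1C* rose by 2.72 and 2.36, and since they are near-identical copies of *NCF1*, how reads were shared among the 3 is uncertain.

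**Figure D3:**
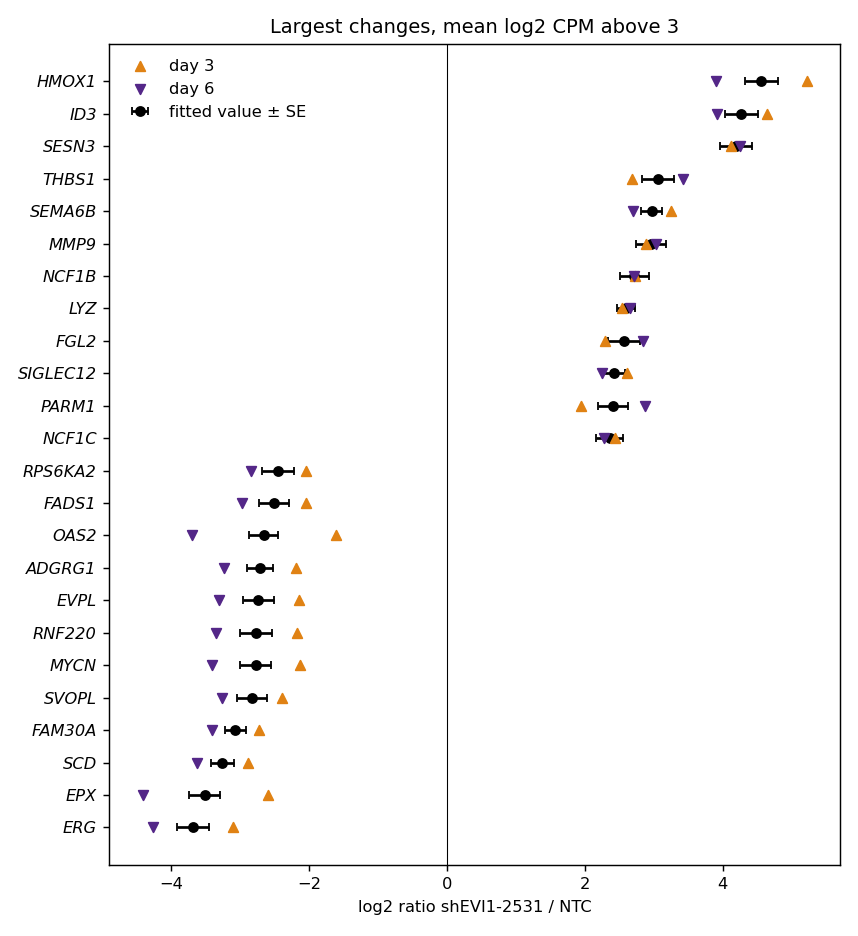
Log2 ratio of shEVI1-2531 to NTC (x axis) for the 12 genes with the largest fall and the 12 with the largest rise among called genes with a mean log2 CPM above 3, ordered by the fitted value (black points, bars ± SE), with the single-library ratios at day 3 (orange) and day 6 (purple). All 12 falling genes lie further below 0 at day 6 than at day 3, whereas rising genes such as *HMOX1* (5.23 and 3.90) and *PARM1* (1.95 and 2.87) go either way.

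The promoters of *CD34*, *ERG* and *CD14* are shown because these are a marker and a regulator of progenitors that fell and a monocyte marker that rose. Those of *FGL2* and *PARM1* are shown because they alone, among the 24 genes with the largest changes and a RefSeq entry, had a match to a motif searched in the 250 bases before the start site. Each is the strand of the gene, from 250 bases before to the base before the RefSeq start site (GRCh38.p14), in lower case, with capitals for a match to the C/EBP letters. *CD34* lies on the minus strand of chromosome 1 (207911126 to 207911375), *ERG* on that of chromosome 21 (38660668 to 38660917), *CD14* on that of chromosome 5 (140633176 to 140633425) and *FGL2* on that of chromosome 7 (77199820 to 77200069), while *PARM1* lies on the plus strand of chromosome 4 (74932866 to 74933115).
CD34: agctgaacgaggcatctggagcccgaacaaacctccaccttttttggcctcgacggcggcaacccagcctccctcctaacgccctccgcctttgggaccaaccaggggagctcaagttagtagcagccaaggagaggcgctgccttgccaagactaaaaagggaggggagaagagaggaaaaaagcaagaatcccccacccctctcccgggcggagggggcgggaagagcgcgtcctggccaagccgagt
ERG: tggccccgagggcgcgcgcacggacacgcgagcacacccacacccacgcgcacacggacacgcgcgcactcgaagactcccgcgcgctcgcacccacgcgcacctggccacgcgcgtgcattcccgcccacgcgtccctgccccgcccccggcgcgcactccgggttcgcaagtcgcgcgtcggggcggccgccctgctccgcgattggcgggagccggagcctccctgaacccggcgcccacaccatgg
CD14: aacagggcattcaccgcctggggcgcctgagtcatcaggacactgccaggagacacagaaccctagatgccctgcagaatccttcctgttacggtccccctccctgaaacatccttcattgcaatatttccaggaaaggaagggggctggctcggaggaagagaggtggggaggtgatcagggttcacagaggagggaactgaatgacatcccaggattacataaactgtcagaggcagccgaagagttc
FGL2: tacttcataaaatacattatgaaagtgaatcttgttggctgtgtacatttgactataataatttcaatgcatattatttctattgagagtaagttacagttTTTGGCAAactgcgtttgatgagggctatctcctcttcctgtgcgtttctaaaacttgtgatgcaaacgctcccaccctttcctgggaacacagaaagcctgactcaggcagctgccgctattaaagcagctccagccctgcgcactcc
PARM1: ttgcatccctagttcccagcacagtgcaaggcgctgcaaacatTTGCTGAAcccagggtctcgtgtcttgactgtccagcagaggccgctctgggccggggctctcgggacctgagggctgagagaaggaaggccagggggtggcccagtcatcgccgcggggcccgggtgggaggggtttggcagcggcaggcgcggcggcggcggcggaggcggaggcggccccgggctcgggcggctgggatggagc

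Over the window from 250 bases before to 50 after the start site, 4 motifs were searched on both strands. The RefSeq table matched 10923 tested gene symbols by name, 527 of them called lower and 453 called higher, and it gave no entry for *HOXB2*. The EVI1 letters GACAAGATA stood in 0 lower and 0 higher promoters, in 3 of the 10923 (0.0275%) and in 0.11% of all 27305 promoters in the table. GATAAG, of the GATA type, which shares 4 letters with the former, stood in 5.50% of lower, 4.64% of higher and 3.96% of tested promoters (6.36% of the table). The PU.1 letters GAGGAAGT stood in 3.42% of lower, 5.30% of higher and 2.86% of tested promoters (2.54% of the table). The C/EBP letters TTGCNNAA stood in 8.16%, 9.93% and 7.29% (10.6% of the table). *CD34*, *ERG* and *CD14* held 0 matches to any of the 4. These shares are descriptions of letters in a short window.

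Groups of genes were then followed as lists, each read against 5.43% lower and 4.12% higher over all genes. A further 4.79% of all genes were lower and 7.15% higher by adjusted p alone, short of the fold limit. Of 35 tested stem and progenitor transcription factors, 14 fell and 0 rose, with a median log2 fold change of -0.61, and without the day block 11 fell. Of these 14, 9 were HOXA or HOXB genes, among them *HOXA9* (3465 and 4154 counts in NTC, 888 and 1052 with shEVI1-2531, -1.67), *HOXA5* (-2.45), *HOXA10* (-1.12), *HOXB4* (-1.15) and *HOXB5* (-3.58). *HLF*, a stem cell bZIP factor, had 456 and 1766 counts against 40 and 29 (-4.41, SE 0.33), and *BCL11A* fell by 1.82. By adjusted p alone, 5 more members were lower and 3 were higher, *LMO2* (0.76), *PLAG1* (0.81) and *IKZF2* (0.62). Some other factors of the same state were close to NTC, with -0.23 for *GATA2* (adjusted p = 0.34), 0.14 for *RUNX1* (adjusted p = 0.55) and -0.25 for *MYB* (adjusted p = 0.23).

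Of 29 tested stem and progenitor surface and signalling genes, 15 fell and 0 rose (median -1.08). Beside *CD34*, *FAM30A* and *ADGRG1*, they included *BAALC*, a marker of immature AML (1221 and 1757 counts against 127 and 99, -3.39), *SPINK2* (-2.14), *GUCY1A1* (-2.06), *CD96* (-2.03) and *ANGPT1*, which encodes the TIE2 ligand angiopoietin 1 (-1.66, SE 0.17). *DNMT3B* fell by 1.18. Without the NTC library of day 6, *ANGPT1* stood at -1.21 (adjusted p = 0.091) and *DNMT3B* at -0.94 (adjusted p = 0.010), where values without a library come, here and later, from the fit of the 6 knockdown libraries. *KIT*, the stem cell factor receptor, was 0.72 higher at an adjusted p of 0.0028 without reaching the fold limit. Of 13 genes reported elsewhere as EVI1 targets, 3 fell (*ADGRG1*, *ANGPT1* and *MS4A3*) and 2 rose (*CEBPA* and *FOS*), and the list's median of 0.14 turned to -0.03 when scaled to library totals. Of these 13 genes 0 rose without the day block or with library totals.

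Genes near *MECOM* on 3q26 were listed to describe its locus. Beside *MECOM*, 2 of 12 tested genes rose, *GPR160* by 1.27 (SE 0.21) and *SKIL*, a SMAD co-repressor, by 1.03 (SE 0.25), and the median was 0.04 (-0.13 with library totals). Without the day block, with library totals, or in the fit of 6 libraries, 1 rose. *SKIL* stood at 0.99 in the fit of 6 libraries, under the fold limit. It stood at 0.53 without the NTC library of day 6 and at 0.88 without the shEVI1-2531 library of day 6.

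Transcription factors of myeloid fate went the other way, with 13 of 32 tested members higher and 0 lower (median 0.66), and 7 higher without the day block. *ID2* had 1845 and 1633 counts in NTC and 6100 and 8258 with shEVI1-2531 (2.34, SE 0.20). *CEBPB*, a C/EBP factor of macrophages, rose by 1.53 (SE 0.20), *CEBPD* by 1.13, *KLF4* by 2.54 and *IRF8* by 1.16. *CEBPA*, the factor that commits progenitors to the granulocyte and monocyte branch, had 6906 and 10001 against 11619 and 18266 counts (1.12, SE 0.15), and stood at 0.95 (adjusted p = 0.0054) without the NTC library of day 3. *SPI1*, which encodes PU.1, was 0.57 higher at an adjusted p of 2.0e-04, under the fold limit.

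Monocyte and macrophage markers were higher in 21 of 40 tested members and lower in 0 (median 1.06). The DESeq2 test called 18 of the 40 higher and the fit without the day block 15. The summed level of these markers was 2934 and 2311 CPM in NTC against 5859 and 5059 with shEVI1-2531. *CYBB*, the catalytic subunit of the phagocyte NADPH oxidase, had 23477 and 22772 against 49639 and 74126 counts (1.70, SE 0.13). *CD36* (1.86), *VSIG4* (1.59), *ITGAM*, which encodes CD11b (1.62), *FCN1* (2.09) and the formyl peptide receptor *FPR1* (2.72) rose as well. *CSF1R*, the M-CSF receptor, was at -0.31 (adjusted p = 0.10), and *FCGR3A*, *MARCO* and *MSR1* had at most 2 counts in any library. Of 8 NADPH oxidase subunits, *CYBB* and *NCF1* (1.77, SE 0.15) rose, *CYBA* was 0.78 higher under the fold limit, and the median was 0.27.

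Granule genes were followed by the type of granule. Of 12 tested genes of secondary and tertiary granules, 8 rose and 0 fell (median 1.59). They included *MMP9* (946 and 951 counts against 4918 and 7244), *CHI3L1* (205 and 151 against 865 and 2536, 3.38) and *SLPI* (1.79). *HP*, haptoglobin, rose by 2.18, with *TXNL4B* on the other strand at 177% of its counts. The defining secondary granule genes *LTF* and *LCN2* had at most 6 counts in any library and *CAMP* was at 0.56, short of a call, so the calls came from its other members. Of 17 primary granule genes, 2 rose and 2 fell (median 0.43). *ELANE*, neutrophil elastase, had 1460 and 1219 counts in NTC and 105 and 216 with shEVI1-2531 (-2.82, SE 0.27, adjusted p = 2.9e-23), and *MS4A3* fell by 1.10. *SRGN*, the granule proteoglycan serglycin, rose by 1.11 and *CLEC11A* by 1.01. They stood at 0.82 without the NTC library of day 6 and at 0.79 without that of day 3, and with library totals, or without the day block, 0 of the 17 rose, while 1 fell without the block or by the DESeq2 test. *MPO*, myeloperoxidase, was 0.43 higher and *AZU1* was at -0.30 (adjusted p = 0.14).

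**Figure D4:**
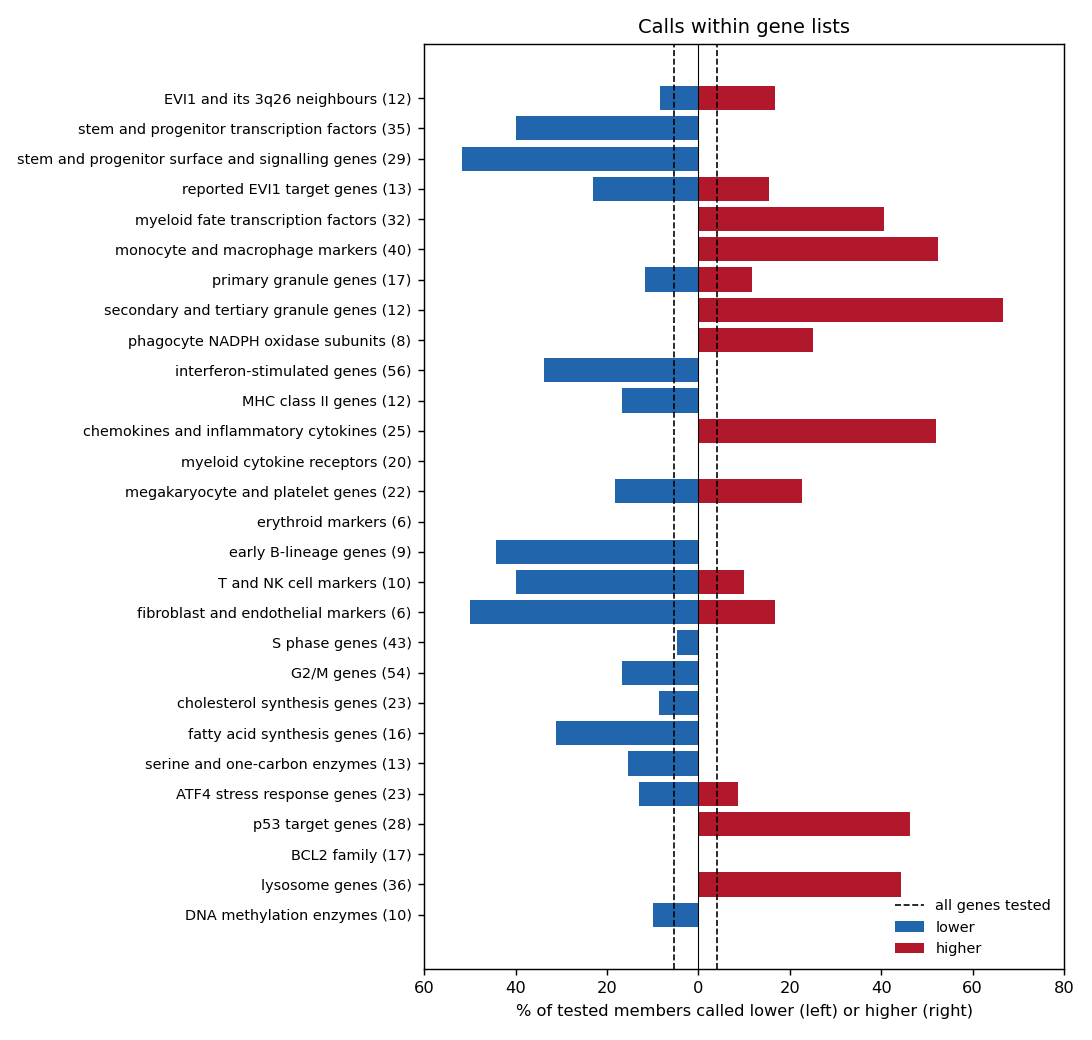
Percent of tested members called lower (blue, left) and higher (red, right) in each of 28 gene lists, with the number tested in parentheses and dashed lines at the 5.43% and 4.12% of all genes tested. Bars of the stem and progenitor lists lie to the left, and bars of the monocyte, secondary and tertiary granule, chemokine, lysosome and p53 lists to the right.

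Secreted inflammatory genes and lysosome genes were higher. Of 25 tested chemokines and inflammatory cytokines, 13 rose and 0 fell (median 1.16), and 10 rose by the DESeq2 test and 11 without the day block. *CCL2* had 4236 and 4792 counts in NTC and 10566 and 16343 with shEVI1-2531 (1.85, SE 0.16), and *CXCL8*, interleukin 8, rose by 1.68 (SE 0.16). *CCL22* had 260 and 295 against 492 and 4686 counts (2.79, SE 0.25), with most of its gain in the day 6 library. Of 20 myeloid cytokine receptors, 0 reached the call and 8 were higher by adjusted p alone (median 0.31), beside the 7.15% of all genes. Among these were *CSF2RB*, the shared chain of the GM-CSF and IL-3 receptors (0.93, SE 0.12), *IL17RA* (0.86) and *IL6R* (0.87).

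Of 36 tested lysosome genes, 16 rose and 0 fell (median 0.88), and with library totals 8 rose (median 0.71) and without the day block 9. Their summed level was 3906 and 4091 CPM in NTC and 7584 and 8424 with shEVI1-2531. *CTSD*, cathepsin D, had 12217 and 22822 against 36310 and 51691 counts (1.68, SE 0.14), and *GRN*, progranulin, rose by 1.46 (SE 0.12). The tartrate-resistant phosphatase *ACP5* had 133 and 218 against 1261 and 1597 counts (3.36, SE 0.26), with *ZNF627* on the other strand at 422% of its counts.

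Interferon-stimulated genes were lower in 19 of 56 tested members and higher in 0 (median -0.72), with the larger ratios in the day 6 pair. The DESeq2 test called 12 of the 56 lower and the fit without the day block 10. The median ratio was -0.11 at day 3 and -1.19 at day 6, and the summed level was 2198 CPM at day 3 and 3584 at day 6 in NTC against 2402 and 1982 with shEVI1-2531. *OAS2* had 5141 and 14212 counts in NTC and 1181 and 1020 with shEVI1-2531, *OAS1* fell by 2.14 (SE 0.22) and *OAS3* by 1.62 (SE 0.15). *MX1*, a GTPase that blocks virus replication, had 3122 and 11256 against 1978 and 1971 counts, which gave ratios of -0.15 and -2.41. Without the NTC library of day 6, *MX1* stood at -0.06 (adjusted p = 0.88) and *IFIT1* at -0.47 (adjusted p = 0.27), against -1.46 and -1.92 in the same fit with all 6 libraries. *IFIT1* also lies within *LIPA* on the other strand, which had 618% as many counts.

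Of 12 MHC class II genes, 2 fell, 0 rose and 8 more were lower by adjusted p alone (median -0.67), beside the 4.79% of all genes. *HLA-DOA* had 582 and 1260 counts against 32 and 104 (-3.57, SE 0.31). *CIITA*, the master activator of the class, fell by 1.28 (SE 0.19) and stood at -0.97 (adjusted p = 0.020) without the NTC library of day 6. *CD74*, the invariant chain, was at -0.65 (SE 0.12).

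Cell cycle genes were followed by phase. Of 54 G2/M genes, 9 fell and 0 rose (median -0.55), with 20 more lower by adjusted p alone. With library totals 14 of the 54 fell, and without the day block 7. The condensin subunit *SMC4* had 14622 and 13058 counts against 1949 and 3433 (-2.11, SE 0.17), the kinetochore gene *CENPF* fell by 1.98, *CENPE* by 2.64 and *MKI67*, the gene of Ki-67, by 1.28. Their merged exons span 6543, 10343, 8615 and 12678 bases, against a median of 3260 in the list. The day 3 and day 6 ratios were -2.40 and -1.82 for *SMC4*, -1.87 and -2.08 for *CENPF*, -2.95 and -2.34 for *CENPE* and -1.25 and -1.30 for *MKI67*. Of 43 S phase genes, 2 fell (4.65%) and 0 rose, and 21 more were lower by adjusted p alone (median -0.46). With library totals 5 fell, and without the day block 1. The 2 that fell were *CASP8AP2* (-1.46) and *CLSPN* (-1.13, and -0.97 without the shEVI1-2531 library of day 3), while *GINS2* was at -0.75 and *PCNA* at -0.19 (adjusted p = 0.32). Of 10 DNA methylation enzymes, 1 fell, *DNMT3B*, with *DNMT1* at -0.73 and *UHRF1* at -0.54 under the fold limit (median -0.08).

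Targets of p53 were higher in 13 of 28 tested members and lower in 0 (median 0.83), with library totals in 10 and without the day block in 9. *CDKN1A*, the cell cycle inhibitor p21, had 26043 and 21041 counts in NTC and 41727 and 55382 with shEVI1-2531 (1.35, SE 0.13), *FDXR* rose by 1.5 (SE 0.15), *ZMAT3* by 1.82 (SE 0.21), *MDM2* by 1.20 and *GDF15* by 2.73. *SESN2* rose by 1.11 and stood at 0.95 (adjusted p = 0.0074) without the NTC library of day 3. Of 17 BCL2 family genes, 0 reached the call (median 0.18), with *BCL2A1* at 0.97, *BAX* at 0.62 and *MCL1* at 0.52, each with an adjusted p under 0.05.

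A few members of the lipid and amino acid synthesis lists were called lower. Of 16 fatty acid synthesis genes, 5 fell and 0 rose (median -0.20). Beside *SCD* and *FADS1* these were *FADS2* (14335 and 40879 counts against 3835 and 5209, -2.13, with *FEN1* on the same strand at 68.1% of its counts), *LPIN1* (-2.09) and *SREBF1*, the lipogenic transcription factor (-1.09), while *FASN*, fatty acid synthase, was at -0.04 (adjusted p = 0.88). Of 23 cholesterol synthesis genes, *SREBF2* (-1.03, SE 0.15) and *TM7SF2* (-1.26) fell and 0 rose (median -0.29), and *FDFT1* was at -0.65. Without the day block 0 of the 23 fell. *SREBF2* stood at -0.80 without the NTC library of day 6 and at -0.95 without the shEVI1-2531 library of day 6.

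Of 13 serine and one-carbon enzymes, 2 fell and 0 rose (median -0.21), and 1 fell in the fit of 6 libraries. *PHGDH*, the first enzyme of serine synthesis, had 17381 and 24420 counts against 4487 and 4987 (-1.82, SE 0.15). *CBS*, which makes cystathionine, had 419 and 1267 against 7 and 258 counts (-3.22, SE 0.32). In the fit of 6 libraries *CBS* stood at -2.69 (adjusted p = 0.11) and had no call. Without the NTC library of day 3 it was at -3.14 and without that of day 6 at -1.56. Without the shEVI1-2531 library of day 3 it was at -1.47. Of 23 ATF4 stress response genes, 3 fell (*PHGDH*, *ADM2* by 1.89 and *ASNS* by 1.75) and 2 rose (*SESN2* and *NUPR1*), with a median of -0.48. With library totals 6 fell and 1 rose, and without the day block 1 rose.

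Markers of other blood lineages and of stroma were checked, as progenitors can carry low levels of them. Of 9 early B-lineage genes, 4 fell and 0 rose (median -0.25). *IGHM*, the immunoglobulin mu locus, had 3053 and 6587 counts in NTC and 66 and 74 with shEVI1-2531 (-5.71, SE 0.26, adjusted p = 3.0e-99), *IGLL1* had 255 and 269 against 16 and 34 (-3.15) and *CD79B* fell by 1.90. *IL7R* fell by 1.37 and stood at -0.99 (adjusted p = 0.0016) without the shEVI1-2531 library of day 3. The defining B cell genes *PAX5*, *EBF1* and *MS4A1* had 0 counts in all 4 libraries, and the summed level of the list was 173 and 196 CPM in NTC and 110 and 96.2 with shEVI1-2531.

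Of 10 tested T and NK cell markers, 4 fell and 1 rose (median -0.74), at a summed level of 33.6 to 46.5 CPM. By the DESeq2 test, or without the day block, 2 fell. *CD3E* had 686 and 1011 against 109 and 143 counts (-2.43) and *LCK* 216 and 457 against 37 and 102 (-2.05), while *CD2* rose from 143 and 107 to 458 and 207 counts (1.64, SE 0.32). *LCK* stood at -1.48 (adjusted p = 0.089) without the NTC library of day 6, and *CD2* at 1.40 (adjusted p = 0.11) without that of day 3 and at 0.94 (adjusted p = 0.16) without the shEVI1-2531 library of day 3. *CD28* and *KLRD1* had 0 counts. Of 6 fibroblast and endothelial markers, 3 fell and 1 rose (median -0.98, summed level 26.2 to 79.2 CPM), and *COL1A2*, *COL3A1*, *LUM* and *KDR* had 0 counts. *PDGFRB* fell by 2.72, *CDH5* by 1.82 (-0.99, adjusted p = 0.22, without the NTC library of day 6), and *ACTA2* rose by 1.38 with *FAS* on the other strand at 783% of its counts.

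Of 22 megakaryocyte and platelet genes, 4 fell and 5 rose (median -0.05), and 3 rose by the DESeq2 test or without the day block. *PPBP*, which encodes platelet basic protein, had 235 and 299 counts against 1961 and 1522 (3.01, SE 0.25), beside *THBS1*, while *GP9* fell by 2.22 and *RAB27B* by 1.56. Of 6 tested erythroid markers, 0 reached the call (median 0.11, and -0.07 with library totals). *TFRC*, the transferrin receptor, was at -0.74 and *HBD* at 0.90 under the fold limit, *RHAG* was at 0.24 (adjusted p = 0.68), and *HBA2*, *AHSP* and *CA1* had 0 counts. The part of these other-lineage transcripts in the results was not tested.

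Finally, shEVI1-2531 was compared with shEVI1-2532, which left less *MECOM*, in a fit of the 6 knockdown libraries. Of 18606 genes tested, 2234 were higher (12.0%) and 2271 lower (12.2%) with shEVI1-2531 than with shEVI1-2532 at an adjusted p under 0.05. Among the 982 genes lower with shEVI1-2531, 159 were further down with shEVI1-2532, 117 were further down with shEVI1-2531, and 706 had no call for the difference. Among the 745 higher genes, 209 were further up with shEVI1-2532, 118 further up with shEVI1-2531, and 418 had no call. Genes counted as further with shEVI1-2531 include those on the other side of NTC with shEVI1-2532, as the sign of the difference alone was used. Without the day block, 137 genes in both directions together were further with shEVI1-2532 and 74 further with shEVI1-2531, in place of 368 and 235. Both hairpins share the NTC libraries, so each gene's values are given side by side.

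Among the 14 stem and progenitor transcription factors that fell, 6 were further down with shEVI1-2532, 2 further down with shEVI1-2531 and 6 had no call for the difference. The 2 were *HOXA9*, at -1.67 with shEVI1-2531 and -1.03 with shEVI1-2532 in this fit (difference -0.64, SE 0.18, adjusted p = 0.021), and *HOXA10*, at -1.13 and 0.11 (difference -1.24, SE 0.18, adjusted p = 5.6e-04). Among the 15 surface and signalling genes that fell, 10 were further down with shEVI1-2532, 0 with shEVI1-2531 and 5 had no call. *CD34* was at -2.43 with shEVI1-2531 and at -6.78 with shEVI1-2532 in this fit, a difference of 4.35 (SE 0.30, adjusted p = 9.3e-06). *ERG* differed by 2.18 (SE 0.34, adjusted p = 7.5e-04), *HOXB2* by 2.68 (SE 0.45, adjusted p = 0.0014), *MYCN* by 4.18 (SE 0.33, adjusted p = 1.4e-05) and *PHGDH* by 3.75 (SE 0.20, adjusted p = 2.0e-06). On the gained side, *LYZ* was at 2.59 and 4.85, a difference of -2.26 (SE 0.17, adjusted p = 1.3e-05), and *MMP9* at 2.97 and 5.98 (difference -3.01, SE 0.29, adjusted p = 4.1e-05). *CD14* was at 4.60 and 5.14, and its difference of -0.54 (SE 0.21) did not pass (adjusted p = 0.077). *ID3* (0.28, SE 0.47), *SESN3* (0.03, SE 0.24), *CDKN1A* (-0.23, SE 0.13) and *CEBPA* (0.14, SE 0.13) also had no call for the difference.

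Other genes moved further with the weaker hairpin, or lay on the other side of NTC with shEVI1-2532. *EPX* was at -3.44 with shEVI1-2531 and -1.86 with shEVI1-2532, a difference of -1.58 (SE 0.35, adjusted p = 0.0067), and *MLC1*, a membrane protein gene, at -1.88 and -0.19 (difference -1.69, SE 0.16, adjusted p = 4.1e-05). *HMOX1* was at 4.62 and 2.98 (difference 1.64, SE 0.30, adjusted p = 0.0021) and the carboxylesterase *CES1* at 1.43 and 0.16 (difference 1.26, SE 0.14, adjusted p = 9.6e-05). *ELANE* had the widest gap among the genes named, at -2.81 and 3.05 (difference -5.86, SE 0.24, adjusted p = 2.8e-07), and *IL32*, a cytokine gene, was at -1.42 and 0.91 (difference -2.33, SE 0.35, adjusted p = 7.1e-04). With shEVI1-2532 it lay above NTC at day 3 (117 against 36.1 CPM) and not at day 6 (34.1 against 35.7). *IL32* stood at -0.90 (adjusted p = 0.22) without the NTC library of day 6, and a gene on its other strand had 49.6% as many counts.

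**Figure D5:**
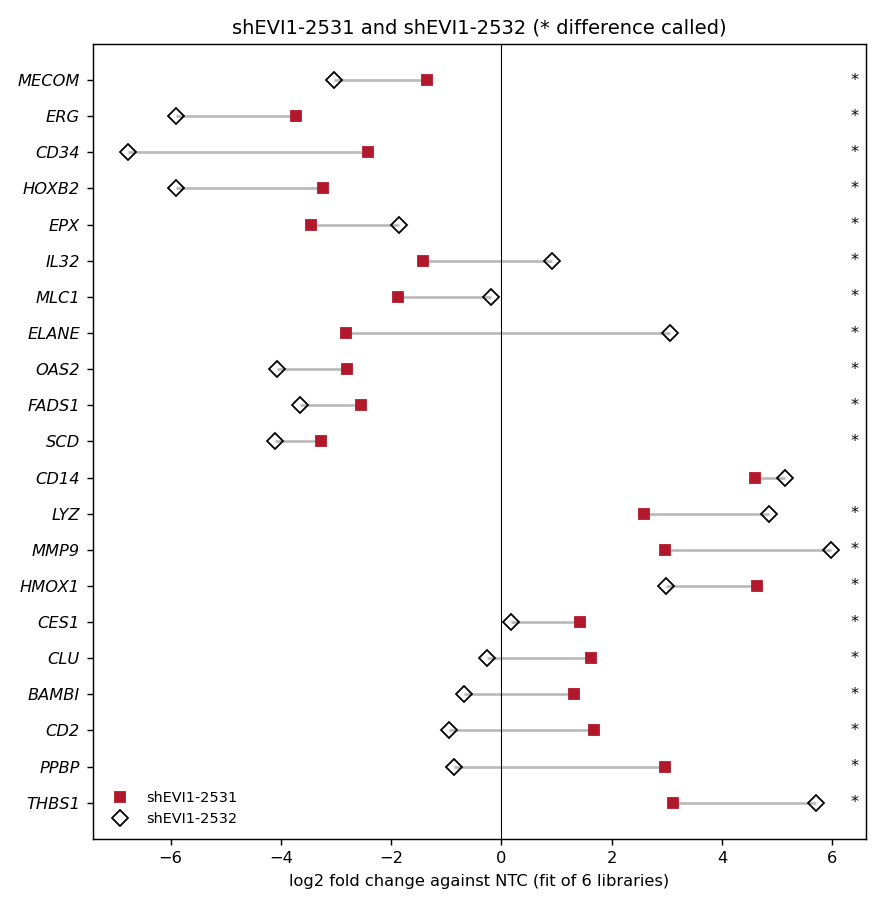
Log2 fold change against NTC (x axis) with shEVI1-2531 (red squares) and shEVI1-2532 (open diamonds) for 21 genes, from the fit of 6 knockdown libraries, with an asterisk where the difference between the hairpins has an adjusted p under 0.05. *CD34* (-2.43 and -6.78) is lower with both, and *ELANE* (-2.81 and 3.05) lies on opposite sides of 0.

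Some called genes rested mostly on 1 day. *MGAM*, maltase-glucoamylase, had 5072 and 5141 counts in NTC and 4827 and 14868 with shEVI1-2531 (1.04, SE 0.17), with *CLEC5A* on its other strand at 79.9% of its counts. *NAIP*, an inflammasome sensor, had 1572 and 820 against 1858 and 2891 counts (1.33, SE 0.21). Without the shEVI1-2531 library of day 6, *MGAM* stood at 0.58 and *NAIP* at 0.97, and without the NTC library of day 6 at 0.64 (adjusted p = 0.086) and 0.85. Of the 105 genes named by rule, 88 were called, and not all of these were called in every fit that left out 1 library. *CBS* and *SKIL* had no call with all 6 libraries either. Leaving out the NTC library of day 6 gave 532 lower genes, that of day 3 gave 598 and leaving out the shEVI1-2531 library of day 3 gave 573, against 797 in the same fit with all 6 libraries.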

How the data were processed

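RNA was extracted with RNeasy Plus and libraries were made with TruSeq Stranded mRNA, per the labels. The authors deposited raw counts for 60623 genes per library, which the submitters' processing notes and file headers tie to STAR, Picard, featureCounts and GRCh38 (hg38). Versions, the annotation and the strand setting are not given in the sources used here. The authors also deposited TPM, for which the distance from gene start to gene end, with introns, served as the length, and this column was only used to check the counts. A small numeric mismatch between labels and file names of shEVI1-2531 was settled by the labels.

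Genes reaching 10 counts in 2 or more of these 4 libraries entered a quasi-likelihood fit after TMM scaling, in edgeR 4.0.16 in R 4.3.3, with the day as a block and shEVI1-2531 as the effect. P-values were adjusted after Benjamini-Hochberg over all genes tested, and calls needed an adjusted p below 0.05 together with a log2 fold change past 1 in either direction. The day pairs the libraries by label, and the deviations of both groups at day 3 from their group means correlated at 0.358 across 18091 genes. The hairpins were compared in a fit of 6 libraries with 3 groups and the day. Gene lists, members and comparisons were chosen with earlier results of these data known, so their counts are descriptions. Named genes were *MECOM*, *CD34*, *ERG*, *HOXB2* and *CD14*. In each direction, among called genes with a mean log2 CPM above 3 (prior count 2) that moved the same way on both days, the 12 largest changes and the 5 smallest p-values were added. The 3 smallest p-values in each list were added too, then the 4 genes per direction furthest beyond shEVI1-2532 and the 3 whose ratio moved most between the days. A few more list members are named, chosen after their values were seen. Alternatives were DESeq2 1.42.0, other scalings, filters and thresholds, a fit without the block, and each library left out in turn from the fit of 6 libraries, from which all values given without a library come. Merged exon lengths were taken from GENCODE 29, a check added after the data were seen. The steps were run on simulated counts with the same spread for all genes and the same change at both days. That run did not cover changes in the faintest genes or changes that differ between the days. Plots came from matplotlib 3.10.9 (Python 3.11.15). The 10 libraries of the PARP inhibitor experiment were not used here, and a few genes that the rule names are not reported here.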

Additional observations from a re-analysis of the deposited data

Results flagged for a closer look

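Several genes lay on opposite sides of NTC with the hairpins, and the difference between shEVI1-2531 and shEVI1-2532 itself passed the test, on the log2 scale and after adjustment over all genes. *ELANE* differed by -5.86, *IL32* by -2.33 and *HOXA10* by -1.24, each lower with shEVI1-2531 and on the higher side of NTC with shEVI1-2532. For *IL32* the latter held at day 3 alone, with 117 CPM against 36.1 in NTC, while at day 6 it had 34.1 against 35.7. *RHAG*, an erythroid ammonium channel gene, differed by 5.48, *PPBP* by 3.83, *CD2* by 2.62, the delta-globin gene *HBD* by 2.30, *BAMBI*, a decoy receptor for BMP and activin, by 2.0 and *CLU*, which encodes clusterin, by 1.90, each higher with shEVI1-2531 and on the lower side of NTC with shEVI1-2532. *RHAG* had 145 and 185 counts in NTC and 139 and 177 with shEVI1-2531, so its difference lay in the shEVI1-2532 libraries (-5.24 against NTC). Against NTC alone, *CLU* had no call with shEVI1-2532 (-0.27, with 7.30 CPM against 6.95 in NTC at day 3 and 7.85 against 11.6 at day 6). *HOXA10* (0.11) and *CD2* (-0.94) had none there either, nor had *RHAG* (0.24) with shEVI1-2531. *PPBP* (-0.86), *BAMBI* (-0.68) and *IL32* (0.91) also stayed under the fold limit with shEVI1-2532, as did *HBD* (0.90) with shEVI1-2531.

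The median ratio of 2 lists changed sign between the days, without a test of the difference. The 3q26 neighbours of *MECOM* were at -0.25 at day 3 and 0.19 at day 6, and the erythroid markers at 0.38 and -0.22.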

How the results depend on the processing

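Counts moved with the settings. In 6 other fits (3 other scalings, DESeq2, no block, 6 libraries) 0 calls had the opposite direction. These fits share the same counts, so opposite calls were hardly possible. Of the 982 lower and 745 higher genes, 569 and 521 were shared by the DESeq2 test, which called 569 and 526, and 481 and 419 by the fit without the day block, which called those alone. A filter at 100 counts gave 601 lower and 459 higher genes, a mean log2 CPM above 3 gave 175 and 241, and no fold limit 1848 and 2039. The day 3 pair alone, a log2 ratio with no test, gave 1895 and 1252. Log2 ratios beyond 1 at both days, added after seeing the data together with the CPM limit, kept 597 lower genes. Leaving out 1 library, in the fit of 6 libraries as 3 groups (797 lower and 686 higher with all 6), gave 532 to 1067 lower and 576 to 797 higher genes. The 603 genes called both against NTC and between the hairpins split into 235 further with shEVI1-2531 and 368 further with shEVI1-2532. Without the replicate block they came to 74 and 137, and with 1 library left out to 171 to 270 and 273 to 394. Without the block 8 of the 105 named genes lost their call. A group left with 1 library was assumed to vary like the others. Differences between the days could not be tested with 1 library per condition.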

Other observations

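Beyond the lists and the largest changes, further genes with a mean log2 CPM above 3 differed with shEVI1-2531, named here after their values were seen. *ID1*, an inhibitor of basic helix-loop-helix factors like *ID2* and *ID3*, had 1522 and 2173 counts in NTC and 6369 and 7999 with shEVI1-2531 (log2 fold change 2.28, SE 0.20), so all 3 of these inhibitors rose. Single receptor genes that rose were *CCR2*, the CCL2 receptor of classical monocytes (2730 and 2306 against 6531 and 10339 counts, 2.02), *C3AR1*, the complement C3a receptor (1.61), *LTB4R*, the leukotriene B4 receptor (1.72), and *ADGRE1*, the human F4/80 homologue (1.79). *CD1C*, which marks a subset of dendritic cells, had 861 and 405 against 1887 and 1833 counts (1.96). The peptidylarginine deiminases *PADI4* (10950 and 14865 against 22985 and 44770 counts, 1.64) and *PADI2* (1.73) and the 5-lipoxygenase *ALOX5* (1.58) rose, as did *FUCA1*, a lysosomal fucosidase outside the lysosome list (22641 and 24670 against 74581 and 99591 counts, 2.17).

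Among the losses were *ARID5B*, a chromatin regulator (3389 and 5498 against 722 and 796 counts, -2.20, SE 0.22) and *CD109*, a GPI-anchored surface protein (5073 and 4654 against 898 and 1002 counts, -2.05). *TFPI*, the inhibitor of tissue factor, had 3065 and 3177 against 732 and 526 counts (-2.02). *CALCRL*, the receptor subunit for adrenomedullin that marks immature AML, had 6780 and 6292 against 2050 and 1734 counts (-1.48), and was at -3.99 with shEVI1-2532 (adjusted p of the difference 1.4e-05). In each of these genes both shEVI1-2531 libraries lay on one side of both NTC libraries, which goes with their choice after the values were seen.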
